A study of Mus musculus with 7 samples.

Results

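The beta thymosins Tmsb15a, Tmsb4x and Tmsb10 were followed in muscle stem cells (MuSCs) of WT mice and of mice homozygous for Jag2sm, a hypomorphic allele of the NOTCH ligand gene Jag2. They are 3 of the 56748 genes in the count files. They were chosen by symbol, and also by their levels in this same comparison: Tmsb15a for its lower level in Jag2sm MuSCs and Tmsb4x and Tmsb10 as its more abundant relatives. Their differences between the genotypes are therefore given as descriptions, without a test.

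The samples were 3 WT and 4 homozygous Jag2sm RNA samples. The sample labels give the genotype of the latter as Jag2-/-. The paper instead describes a hypomorphic line whose variant changes an amino acid of the encoded protein, so the label does not mean that Jag2 RNA is absent. In both groups the cells came from hind limb muscles of adult mice, were depleted of CD31+, CD45+ and Sca1+ cells and were selected for Integrin α7 on magnetic columns. The general culture methods keep such cells in myoblast growth medium. The sequencing methods do not say whether the cells used here were cultured, or for how long. The study used animals of both sexes, and the labels give the sex of no sample. No label says that replicates came from separate animals or cultures, so the p-values below measure the spread between these samples. Libraries were direct cDNA on Oxford Nanopore flow cells, with 187834 to 1937581 reads counted on genes. WT replicate 1 was the shallowest. The share of aligned reads outside genes was 45.1% there and 20.8% to 25.7% elsewhere. Between 46.0% and 50.8% of reads did not align in Jag2sm replicates 1, 2 and 4, against 2.44% to 3.24% in the other 4 libraries. Levels are CPM: counts relative to the library total, after TMM normalization.

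Beta thymosins are short peptides that bind actin monomers and hold them in a reserve from which filaments can be built. Thymosin beta 4, the product of Tmsb4x, is the main form in most mammalian cells and is also known from work on cell migration and wound repair. Thymosin beta 10, from Tmsb10, is a close relative known from embryonic tissue and tumours. The Tmsb15 genes encode a further form with the same core of the actin-binding motif. In muscle, the supply of actin monomers matters both for the cell cortex of moving and fusing myoblasts and for thin filaments of the sarcomere.

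The coding sequences show how alike the genes are, which bears on how well reads could be assigned to each of them. All are from GENCODE release M39 on GRCm39 and run from the start codon to the last codon before the stop. Capitals mark the 12 bases, positions 52 to 63, that encode leucine-lysine-lysine-threonine, the core of the actin-binding motif.
Tmsb15a: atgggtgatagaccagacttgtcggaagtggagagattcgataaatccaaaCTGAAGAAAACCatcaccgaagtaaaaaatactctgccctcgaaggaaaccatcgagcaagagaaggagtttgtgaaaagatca
Tmsb4x: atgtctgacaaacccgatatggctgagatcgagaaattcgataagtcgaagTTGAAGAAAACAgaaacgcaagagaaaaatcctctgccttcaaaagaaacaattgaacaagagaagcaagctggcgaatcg
Tmsb10: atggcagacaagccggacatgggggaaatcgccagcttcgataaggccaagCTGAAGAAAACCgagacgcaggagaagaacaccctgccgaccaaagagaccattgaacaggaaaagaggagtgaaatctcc
Tmsb15a has 45 codons, and Tmsb4x and Tmsb10 have 44. Over the aligned coding bases Tmsb15a and Tmsb4x were 69.1% identical, Tmsb10 and Tmsb4x 69.7%, and Tmsb10 and Tmsb15a 66.7%. The encoded peptides shared 30 of 45 residues between Tmsb15a and Tmsb4x, 33 of 44 between Tmsb10 and Tmsb4x and 28 of 45 between Tmsb10 and Tmsb15a.

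Copies elsewhere in the genome were also looked for. No other annotated transcript matched Tmsb15a or Tmsb4x at 90% identity over 100 bases. Tmsb10 had such copies, of which the single-exon gene Tmsb10b and the processed pseudogene Gm3788 drew nearly all the counts. Gm3788 was named here after its counts were seen. Both are printed against the Tmsb10 coding sequence, with capitals now marking the bases that differ from it.
Tmsb10b: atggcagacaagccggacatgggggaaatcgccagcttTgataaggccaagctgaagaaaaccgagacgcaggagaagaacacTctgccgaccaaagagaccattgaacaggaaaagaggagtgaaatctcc
Gm3788: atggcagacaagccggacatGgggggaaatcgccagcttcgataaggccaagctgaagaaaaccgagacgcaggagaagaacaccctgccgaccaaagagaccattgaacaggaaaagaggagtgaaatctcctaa
Tmsb10b, at chr7:24561638-24562122 on the plus strand, differed from Tmsb10 by C39T and C84T, counted from the first base of the start codon, and encodes the same 44 residues. Gm3788, at chr3:86579340-86579475 on the minus strand within an intron of Lrba, a gene on the opposite strand, held all 132 coding bases of Tmsb10 and 1 inserted base. That base lies in a run of G, so its exact place in the run is arbitrary.

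Jag2 itself was read in every library, at 80.7, 114 and 116 CPM in WT replicates 1 to 3 and at 42.4, 78.8, 71.9 and 77.4 CPM in Jag2sm replicates 1 to 4. The groups did not overlap, and the log2 fold change of -0.64 ± 0.243 (SE) did not pass at an adjusted p of 0.166 (edgeR's quasi-likelihood test, Benjamini-Hochberg adjustment over all genes). Of 9489 tested genes, 594 (6.26%) passed this test, 135 of them higher and 459 lower in Jag2sm; with library size alone as the normalization these were 241 and 384.

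Tmsb15a lies at chrX:134619416-134626010 (ENSMUSG00000060726, minus strand). In WT MuSCs it was measured at 63.4, 73.0 and 80.6 CPM in replicates 1, 2 and 3, from 11, 113 and 85 counts. In Jag2sm MuSCs it stood at 0, 6.91, 1.97 and 3.26 CPM in replicates 1 to 4, from 0, 10, 4 and 4 counts. Every Jag2sm library lay below every WT library, with Jag2sm replicate 2 the highest of its group, an arrangement that 12.2% of the 9489 tested genes also showed. The count of 0 in Jag2sm replicate 1 allows up to 4.24 CPM, so at this depth it was not distinguishable from replicates 3 and 4. The floor and the intervals below cover counting error only.

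The mean level of Tmsb15a was 72.4 ± 8.62 CPM in WT (SD, n = 3) and 3.04 ± 2.91 CPM in Jag2sm (SD, n = 4). The log2 fold change was -4.44 ± 0.447 (SE), a level 21.7-fold lower in Jag2sm. Pooled over libraries, 209 WT counts and 18 Jag2sm counts gave a log2 ratio of -4.50, with an exact binomial 95% interval of -5.28 to -3.80. Batch numbers in the labels pair replicates 1, 2 and 3 of the genotypes, and the log2 difference was -5.25, -3.12 and -4.48 within these batches. All 3 batches showed the same direction, as any pairing would where the groups do not overlap. The smallest difference came from the batch of Jag2sm replicate 2. Leaving out single libraries moved the log2 fold change between -5.13, without Jag2sm replicate 2, and -4.16, without Jag2sm replicate 3.

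Tmsb4x, at chrX:165990089-165992311 (ENSMUSG00000049775, minus strand), was by far the most abundant member. Its level was 1228, 3121 and 2920 CPM in WT replicates 1 to 3 and 6965, 1816, 3177 and 1953 CPM in Jag2sm replicates 1 to 4. The groups overlapped: WT replicate 1 was the lowest of the 7 libraries, Jag2sm replicate 1 the highest by a wide margin, and the other 5 lay together between them. These levels rest on 213 to 6447 counts per library, or 0.113% to 0.733% of all gene counts.

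The mean of Tmsb4x was 2423 ± 1040 CPM in WT (SD, n = 3) and 3478 ± 2404 CPM in Jag2sm (SD, n = 4), a log2 fold change of 0.52 ± 0.509 (SE). This value rested on the pair of libraries that carry batch number 1. Without Jag2sm replicate 1 it was -0.064, and without WT replicate 1 it was 0.19. Within batches the log2 difference was 2.50, -0.78 and 0.12, so the direction was not shared by the 3 batches.

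Tmsb10 lies at chr6:72934330-72935737 (ENSMUSG00000079523, minus strand). Its level was 86.5, 167 and 186 CPM in WT replicates 1 to 3 and 117, 116, 118 and 110 CPM in Jag2sm replicates 1 to 4. The 4 Jag2sm libraries lay close together, inside the range of the WT libraries. WT replicate 1, with 15 counts, was the lowest of the 7 libraries, and WT replicates 2 and 3 were the highest.

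The mean of Tmsb10 was 147 ± 52.9 CPM in WT (SD, n = 3) and 115 ± 3.58 CPM in Jag2sm (SD, n = 4), a log2 fold change of -0.41 ± 0.238 (SE). Without WT replicate 1 it was -0.62, and the groups then no longer overlapped. Within batches the log2 difference was 0.43, -0.52 and -0.65, with batch 1 opposite to the others.

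**Figure D1:**
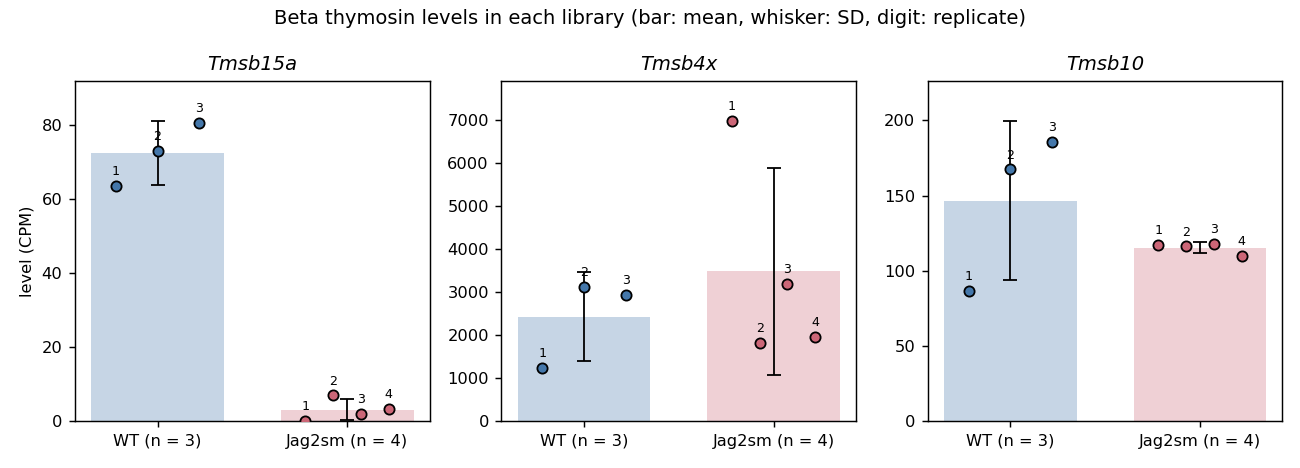
CPM of Tmsb15a, Tmsb4x and Tmsb10 in each library (points, with the replicate number), with the mean (bar) and SD (whisker) of 3 WT and 4 Jag2sm libraries; each panel has its own axis from 0. The genotypes are apart for Tmsb15a, where WT libraries lie at 63.4 to 80.6 CPM and Jag2sm libraries at 0 to 6.91 CPM, and overlap for Tmsb4x and Tmsb10.

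**Figure D2:**
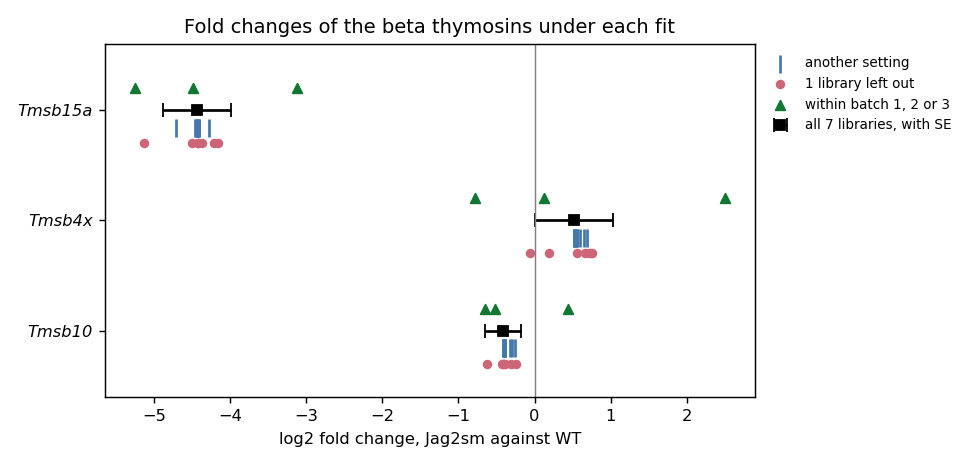
Log2 fold change of each member, Jag2sm against WT, with all 7 libraries (square, with SE), under other settings (bars), with 1 library left out (dots) and within batches 1 to 3 (triangles). Values of Tmsb15a stay between -5.25 and -3.12, whereas those of Tmsb4x and Tmsb10 lie on both sides of 0 between batches.

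Counts that matched Tmsb10 lay mostly outside its annotated locus. Over all libraries 1095 counts (16.1%) were given to Tmsb10, 1324 (19.5%) to Tmsb10b and 4371 (64.3%) to Gm3788, and the remaining copies held 5 counts. The share at Tmsb10 ranged from 14.3% to 26.3% and that at Gm3788 from 61.4% to 67.9%, and the highest share at Tmsb10 was in WT replicate 1, which had only 57 counts for all copies. The split was thus alike in both genotypes, at 63.2% to 66.1% on Gm3788 in WT and 61.4% to 67.9% in Jag2sm. Counts alone do not tell which of the loci was transcribed, and the value of Tmsb10 is uncertain for that reason.

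**Figure D3:**
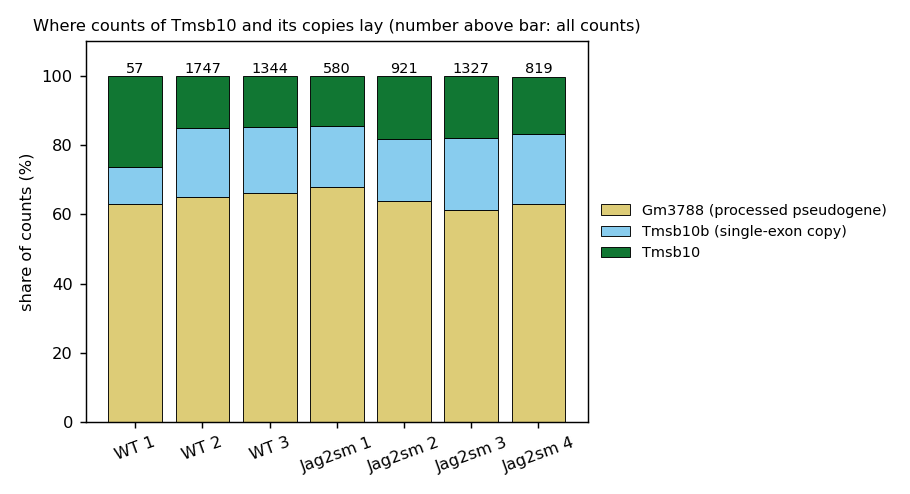
Share of the counts of Tmsb10 and its copies that lay on Gm3788, Tmsb10b and Tmsb10 in each library, in percent, with the number of counts above each bar. Gm3788 takes the largest share in all 7 libraries, 61.4% to 67.9%, and Tmsb10 itself 14.3% to 26.3%.

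With the copies added, the level of Tmsb10 was 329, 1129 and 1275 CPM in WT replicates 1 to 3 and 820, 636, 654 and 668 CPM in Jag2sm replicates 1 to 4. Reads set aside for low alignment quality, 9.80% to 14.3% of aligned reads by library, are not in this sum. How many of them came from these loci was not tested. WT replicate 1 was again the lowest and WT replicates 2 and 3 the highest. The summed log2 fold change was -0.41 ± 0.382 (SE), the same value as for Tmsb10 alone with a wider error. Tmsb10b had a log2 fold change of -0.47 ± 0.404 (SE, adjusted p = 0.576) and Gm3788 of -0.44 ± 0.383 (SE, adjusted p = 0.577) by the same edgeR test, so neither passed. Only 1 of 15 alternatives for Tmsb10b and 1 of 16 for Gm3788 gave a pass, the fit without WT replicate 1. That fit leaves out the lowest WT library and gave -0.85 (edgeR adjusted p = 0.0173) and -0.83 (edgeR adjusted p = 0.0302). In the other alternatives the adjusted p reached 0.913 and 0.946. The copies are nearly identical to Tmsb10, so these fits are not separate from its level.

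The other 3 annotated genes of the family, Tmsb15l, Tmsb15b1 and Tmsb15b2, were listed at 0 in all 7 libraries. Exons of Tmsb15l overlap those of Tmsb15b1 and of Tmsb15b2 on the same strand, where reads on more than 1 gene can be set aside as ambiguous. Exons of Tmsb15a overlap those of 2 long noncoding RNAs on the opposite strand, Gm62135 and Gm61763, neither of which is in the count files. The strand setting of the counting is not given in the sources used here.

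Levels of different genes were compared as CPM per kilobase of the canonical transcript. In WT MuSCs the order was Tmsb4x at 3398 ± 1458, Tmsb10 at 186 ± 67.1 and Tmsb15a at 133 ± 15.9 CPM per kilobase (SD, n = 3). Tmsb10 and Tmsb15a, neighbours in that order, differed by less than the SD of Tmsb10. In Jag2sm MuSCs the order was the same, at 4878 ± 3372, 146 ± 4.55 and 5.58 ± 5.35 CPM per kilobase (SD, n = 4), and Tmsb15a then stood well below Tmsb10. Among 9477 genes Tmsb4x ranked 26 in WT and 13 in Jag2sm, Tmsb10 361 and 458, and Tmsb15a 488 and 6423. With its copies Tmsb10 would rank 80 in WT and 103 in Jag2sm. On this scale Tmsb10 at its own locus was thus not clearly more abundant than Tmsb15a in WT MuSCs. Without division by length it was higher in every WT library, with means of 147 ± 52.9 CPM for Tmsb10 and 72.4 ± 8.62 CPM for Tmsb15a (SD, n = 3). Division by length takes counts to grow with transcript length, which was not tested for these direct cDNA reads. The order of these genes in WT and the ranks above depend on that choice.

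Ratios within a library do not depend on normalization. Per 1000 counts of Tmsb4x there were 51.6, 23.4 and 27.6 counts of Tmsb15a in WT replicates 1 to 3. The corresponding ratios were 0, 3.81, 0.620 and 1.67 in Jag2sm replicates 1 to 4, with an upper limit of 0.749 for replicate 1. The exact 95% intervals, which cover counting error only, began at 19.2 or above in WT and ended at 7.01 or below in Jag2sm. The ratio kept the genotypes apart in every library. It reuses the levels by which Tmsb15a and Tmsb4x were chosen, so it is a description and no separate support. Per 1000 counts of Tmsb10 with its copies, Tmsb15a had 63.2 to 193 counts in WT and 0 to 10.9 in Jag2sm. For each count of Tmsb10 with its copies there were 2.29 to 3.74 counts of Tmsb4x in WT and 2.85 to 8.49 in Jag2sm, ranges that overlap.

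Several other measurements moved with these levels. The summed level of 14 differentiated muscle genes, such as myosin heavy chains and troponins, was 23157 to 44086 CPM in WT and 1008 to 5154 CPM in Jag2sm, and all 12 that could be tested fell. All 14 were detected. Per 1000 counts of these genes, Tmsb15a had 1.44, 3.15 and 3.23 counts in WT replicates 1 to 3 and 0, 2.59, 1.96 and 0.633 counts in Jag2sm replicates 1 to 4. On this scale the genotypes overlapped, with Jag2sm replicates 2 and 3 above WT replicate 1. That overlap rested on 11 counts of Tmsb15a in WT replicate 1 and on 10 and 4 in Jag2sm replicates 2 and 3. Every Jag2sm library lay below WT replicates 2 and 3, and the pooled ratios were 3.00 in WT and 1.18 in Jag2sm. In bulk samples fewer cells of a type and less RNA per cell cannot be told apart.

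Against 10 muscle stem cell and myoblast genes, such as Pax7 and Myod1, the genotypes stayed apart: Tmsb15a had 10.4 to 22.8 counts per 1000 counts of these genes in WT and 0 to 2.80 in Jag2sm. All 10 were detected, with a summed level of 3539 to 6104 CPM in WT and 2330 to 2841 CPM in Jag2sm, and 1 of the 9 tested fell. This was Des, the muscle intermediate filament gene, with a log2 fold change of -1.63 (edgeR adjusted p = 0.0244). Des weighed heavily in the sum, with 798 of 1059, 2796 of 5600 and 1977 of 3732 list counts in WT replicates 1 to 3. The lower sum in Jag2sm is therefore not a fall of the list as a whole. The other tested genes did not pass, with log2 fold changes from -0.63 to 1.03, Pax7 at 0.80 and Myod1 at -0.19. Of 15 cell cycle genes, 0 passed the test in edgeR, DESeq2 or limma-voom, and 1 had an unadjusted p under 0.05 in edgeR. Their summed level was 329 to 1664 CPM in WT and 1581 to 2326 CPM in Jag2sm. WT replicate 1 had the lowest level of cell cycle genes, the highest of differentiated muscle genes and the lowest of Tmsb4x. The part of these differences in the level of any member was not tested.

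Markers of other cells were low. Endothelial genes summed to 4.74 to 11.5 CPM in WT and 7.88 to 17.0 CPM in Jag2sm, with 6 of 8 detected and Kdr and Tie1 at 0. Immune genes summed to 5.76 to 25.9 CPM in WT and 4.43 to 14.1 CPM in Jag2sm, with 5 of 10 detected and Ptprc, Adgre1, Cd3e, Lyz2 and Tyrobp at 0. Fibro-adipogenic genes summed to 0 to 17.1 CPM in WT and 6.90 to 44.9 CPM in Jag2sm, with 5 of 7 detected and Dpt and Lum at 0. None of these lists reached the level of Tmsb10 in any library.

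Mural genes, markers of pericytes and vascular smooth muscle, stood apart in 1 library. All 5 were detected, and their sum was 32.2 to 86.5 CPM in WT, 31.0 to 49.8 CPM in Jag2sm replicates 2 to 4 and 646 CPM in Jag2sm replicate 1, the library with the highest Tmsb4x. Rgs5 made up 645 of that sum, whereas Pdgfrb, Kcnj8 and Abcc9 had 0 counts there and Cspg4 had 1. Abcc9, a potassium channel subunit of pericytes that is also made in muscle, fell by 3.71 on the log2 scale (edgeR adjusted p = 0.0139), and Rgs5 did not pass (edgeR adjusted p = 0.135). Des, Rgs5 and Abcc9 were named after their values were seen. The part of this library's makeup in the level of Tmsb4x was not tested.

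**Figure D4:**
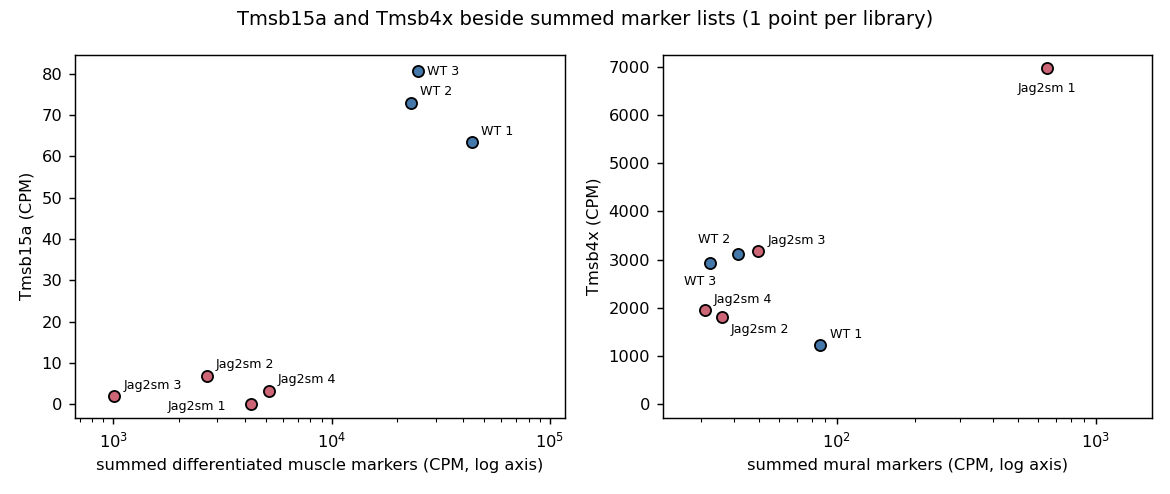
CPM of Tmsb15a against the summed CPM of 14 differentiated muscle genes (left) and of Tmsb4x against that of 5 mural genes (right), 1 point per library, with a log x axis. The WT libraries lie at 23157 CPM or above and the Jag2sm libraries at 5154 CPM or below on the left, and Jag2sm replicate 1 lies alone at 646 CPM and 6965 CPM on the right.

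Tmsb15a and Tmsb4x are on the X chromosome, and the libraries differed in sex-linked RNA. Xist, which is made from the inactive X chromosome, stood at 432 CPM in WT replicate 1, 219 CPM in Jag2sm replicate 1 and 311 CPM in Jag2sm replicate 3, and at 2.76 CPM or less in the others. The summed level of 4 Y-linked genes was 95.4 to 123 CPM in those other 4 libraries, 5.66 CPM in Jag2sm replicate 1 and 0 in the remaining pair. Both kinds of library occurred in each genotype. Tmsb15a was lower in Jag2sm within each, as it would be in any split where the groups do not overlap. Its levels were 63.4 CPM in WT replicate 1 against 0 and 1.97 CPM in Jag2sm where Xist was high. Where Xist was not high they were 73.0 and 80.6 CPM in WT against 6.91 and 3.26 CPM in Jag2sm. Tmsb4x went in opposite directions, with 1228 CPM in WT against 6965 and 3177 CPM in Jag2sm where Xist was high, and 3121 and 2920 CPM against 1816 and 1953 CPM where it was not. The part of sex-linked RNA in the level of Tmsb15a or Tmsb4x was not tested. Of 313 tested genes on the X chromosome, 0 rose and 25 fell (7.99%) in edgeR, against 1.42% and 4.84% of all tested genes, and 69 had an unadjusted p under 0.05, as did 19.7% of all tested genes. DESeq2 called 3 higher and 24 lower, and limma-voom 0 higher and 31 lower.

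Other genes that handle actin were counted in a list of 53 arranged by role, of which 46 could be tested. By the edgeR test, adjusted over all genes, 1 rose and 7 fell (15.2% of those tested), against a background of 1.42% higher and 4.84% lower among 9489 genes. The median log2 fold change was 0.24 over the list and 0.049 over all tested genes. Without overlap between genotypes, 9 of the 46 genes lay lower in Jag2sm and 10 of the 46 higher. Both are larger shares than the backgrounds of 1158 (12.2%) and 980 (10.3%) of 9489 tested genes.

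Of the actin isoforms, 2 of 4 tested genes fell. Acta1, the skeletal muscle alpha-actin, was measured at 13944, 6071 and 6458 CPM in WT replicates 1 to 3 and at 1442, 634, 181 and 1390 CPM in Jag2sm replicates 1 to 4, without overlap. Its log2 fold change was -3.28 ± 0.630 (SE, edgeR adjusted p = 0.0132), and it no longer passed without Jag2sm replicate 2 (-3.13, edgeR adjusted p = 0.0565). Actc1, the cardiac alpha-actin that is also made in developing skeletal muscle, fell with a log2 fold change of -2.69 ± 0.614 (SE, edgeR adjusted p = 0.0278). It did not pass without WT replicate 2 or 3 or Jag2sm replicate 1 or 2, with edgeR adjusted p between 0.0674 and 0.0969. Acta1 is also 1 of the 14 differentiated muscle genes.

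Proteins that, like the thymosins, bind actin monomers or free them from filaments formed a group of 9, all tested, of which 2 fell. Cap2, a cyclase-associated protein of striated muscle, was at 507, 157 and 151 CPM in WT replicates 1 to 3 and at 41.0, 58.0, 35.5 and 69.3 CPM in Jag2sm replicates 1 to 4, a log2 fold change of -2.30 ± 0.433 (SE, edgeR adjusted p = 0.0123). Cfl2, the muscle cofilin, had a log2 fold change of -1.70 ± 0.323 (SE, edgeR adjusted p = 0.0129). Both kept the genotypes apart, and both passed under the 16 alternatives run for them, each library left out in turn included. The other 7, among them the profilins Pfn1 and Pfn2 and the general cofilin Cfl1, did not pass, with log2 fold changes from -0.34 to 0.72. Over all 9 the median log2 fold change was 0.59, with 6 positive and 3 negative. An unadjusted p under 0.05 in edgeR was found for 6 of the 9, Cap2 and Cfl2 included, against 19.7% of all tested genes.

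Among 7 tested capping and severing proteins, 1 fell and 0 rose by the edgeR test. Log2 fold changes were positive in 4 of the 7, up to 1.68, and negative in 3. An unadjusted p under 0.05 in edgeR was found for 4 of them, against 19.7% of all tested genes. Under 16 alternatives the number called higher stayed at 0 in 13 and reached 3 without a filter on low counts. Tmod1, a tropomodulin that caps the slow-growing ends of thin filaments, was at 46.1, 13.6 and 14.2 CPM in WT replicates 1 to 3 and at 1.41, 2.07, 0 and 4.08 CPM in Jag2sm replicates 1 to 4. Its log2 fold change was -3.34 ± 0.750 (SE, edgeR adjusted p = 0.0260), on 44 WT and 9 Jag2sm counts. The test no longer passed without any 1 of the 3 WT libraries or without Jag2sm replicate 1 or 2, with edgeR adjusted p between 0.0505 and 0.0717. Capzb, a subunit of the barbed-end capping protein, had a log2 fold change of 0.032 ± 0.214 (SE, edgeR adjusted p = 0.971).

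Of 17 nucleation genes, all tested, 2 fell and 1 rose. Lmod2 and Lmod3 encode leiomodins, which nucleate and lengthen thin filaments of the sarcomere. Lmod2 was at 334, 102 and 156 CPM in WT replicates 1 to 3 and at 21.2, 8.29, 4.43 and 16.3 CPM in Jag2sm replicates 1 to 4, a log2 fold change of -4.00 ± 0.512 (SE, edgeR adjusted p = 0.00285). Lmod3 had a log2 fold change of -2.86 ± 0.562 (SE, edgeR adjusted p = 0.0143) and did not pass without Jag2sm replicate 2 (-2.74, edgeR adjusted p = 0.0605). Arpc1b, a subunit of the Arp2/3 complex that builds branched filaments, was at 92.2, 185 and 180 CPM in WT replicates 1 to 3 and at 529, 346, 362 and 282 CPM in Jag2sm replicates 1 to 4. Its log2 fold change was 1.25 ± 0.300 (SE, edgeR adjusted p = 0.0331). Arpc1b did not pass with the replicate number as a block (1.38, edgeR adjusted p = 0.0703), nor without WT replicate 2 or 3 or Jag2sm replicate 1 or 2, with edgeR adjusted p between 0.0662 and 0.101.

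In the remaining groups 0 genes passed in edgeR, DESeq2 or limma-voom. The transcription factor Srf, its actin-sensing partners Mrtfa and Mrtfb and their targets gave 6 tested genes with a median log2 fold change of 0.37, and 5 of the 6 were positive. The exception was the focal adhesion gene Vcl, named after its value was seen, at -0.75 ± 0.322 (SE); it lay below WT in every Jag2sm library and was the 1 gene with an unadjusted p under 0.05 (edgeR adjusted p = 0.227). Their most abundant tested members, the myosin light chain gene Myl9 and the calponin gene Cnn2, had log2 fold changes of 0.55 ± 0.425 and 0.55 ± 0.311 (SE). Partners and processing enzymes of thymosin beta 4 gave 3 tested genes with a median of 0.0011 and none at an unadjusted p under 0.05. Of these, Parva, an adaptor of integrin adhesions, had a log2 fold change of 0.33 ± 0.244 and Prep, a peptidase that cleaves thymosin beta 4, of 0.0011 ± 0.207 (SE).

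**Figure D5:**
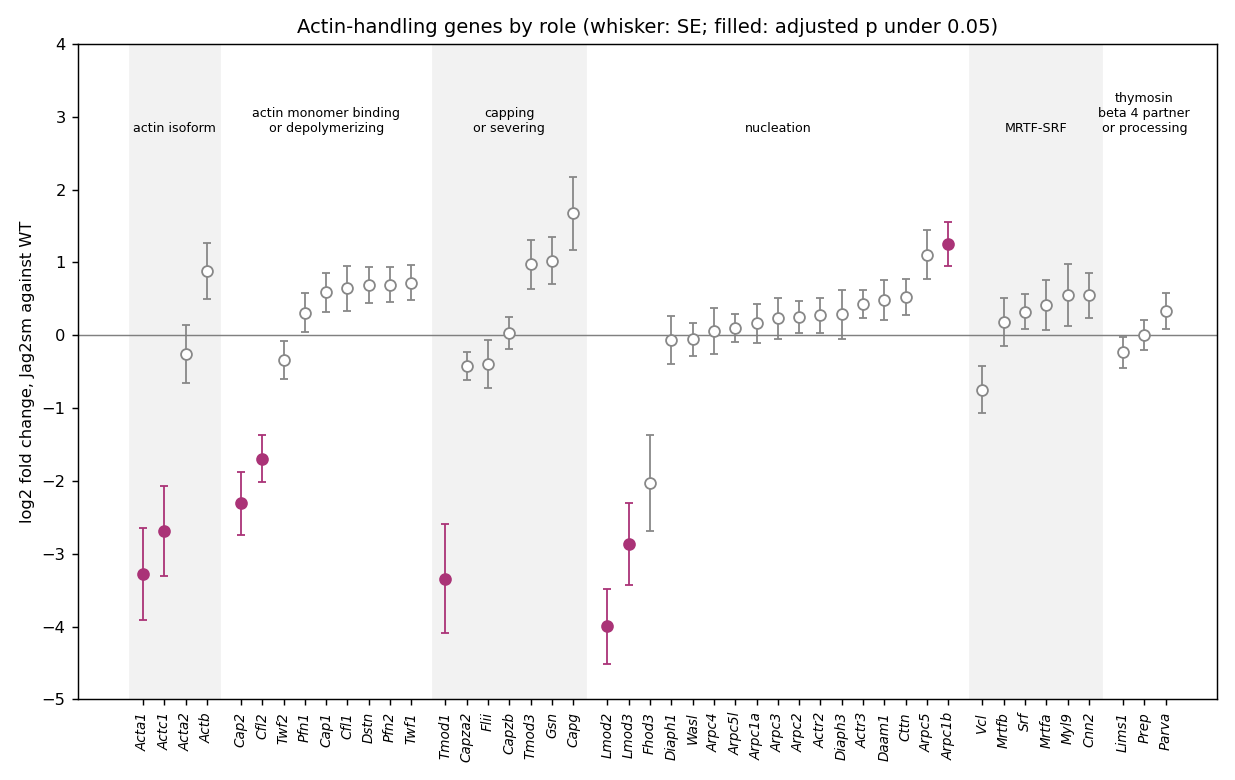
Log2 fold change with SE, Jag2sm against WT, of 46 tested actin-handling genes arranged by role; filled points passed edgeR's test at an adjusted p under 0.05. The 7 filled points below 0 are Acta1, Actc1, Cap2, Cfl2, Tmod1, Lmod2 and Lmod3, and the 1 above is Arpc1b.

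The genes whose profile over the 7 libraries was most like that of each member were found by the root mean square difference of log2 CPM after centring each gene on its mean, among 9066 genes. For Tmsb15a they were Fabp3-ps1 at a difference of 0.410, Fxyd6 at 0.540, Col19a1 at 0.564, Cox8b at 0.640 and Myh4 at 0.710, where the median over all genes was 2.23. Fabp3-ps1 is annotated as a pseudogene, so its counts may be shared with the parent gene. In Fabp3-ps1 and Myh4, Jag2sm replicate 1 was also at 0 counts.

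For Tmsb4x the nearest were Gm2423 at 0.246, Edem1 at 0.257, Tmed2b at 0.258, Cib1 at 0.270 and Ppp1r13b at 0.271, with a median of 0.830. All 5 had their lowest level in WT replicate 1 and their highest in Jag2sm replicate 1, and the low in WT replicate 1 rested on 1 to 3 counts in each. For Tmsb10 they were Jagn1 at 0.0833, Ndufb7 at 0.0894, Mrps7 at 0.0976, Zfp868 at 0.104 and Cox6b1 at 0.116, with a median of 0.541. Likeness of profile is a description of these 7 libraries, which share depth and batch across all genes.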

How the data were processed

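MuSC RNA of 3 WT and 4 Jag2sm samples was analysed. The authors called bases with dorado, used minimap2 2.17 for alignment to GRCm39 and htseq for counting on Ensembl genes, and deposited raw counts, with 5 summary lines that were left out of library sizes and tests. The htseq version, strand setting and annotation release are not given in the sources used here. A deposited table with the authors' own comparison (mean signal, log2 fold change, standard error, test statistic, p-value and adjusted p-value) was not used.

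Counts were fitted without covariates in edgeR 4.0.16 (R 4.3.3) by the quasi-likelihood test, after filterByExpr (minimum count 10, minimum total 15; 9489 genes kept) and TMM normalization. The threshold for a call was 0.05 after Benjamini-Hochberg adjustment. The SE is the log2 fold change divided by the square root of F. Log2 CPM used a prior count of 2. Intervals of count ratios are exact binomial at 95%, from SciPy 1.17.1, and a count of 0 was taken to allow 3 counts. Gene copies were sought with BLAST 2.17.0 in GENCODE M39 transcripts at 90% identity over 100 bases. The fit was tested on simulated data.

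The labels give each library a batch number equal to its replicate number, and this pairs replicates 1, 2 and 3. Deviations of same-numbered libraries from their group means correlated at 0.0740, 0.0144 and 0.0539 across genes. The block was used as an alternative. Other alternatives were DESeq2 1.42.0, limma-voom (limma 3.58.1), other normalizations and filters, the robust fit, mitochondrial genes left out, counts summed with gene copies, and each library left out in turn.

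The members and lists were chosen with earlier results of these data known. Named genes are the members, other Tmsb genes with counts, in each actin-handling role up to 4 called genes by lowest adjusted p (made up to 2 with the most abundant), the 5 nearest profiles of each member among genes with a mean of at least 10 counts, and Jag2.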

Additional observations from a re-analysis of the deposited data

Results flagged for a closer look

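In Gm3788, the pseudogene copy of Tmsb10, Jag2sm replicate 1 was far from the other libraries of its group, at 557.1 CPM against 402 to 421 CPM in replicates 2 to 4. Of 23 values examined in this way among the 4 Jag2sm libraries, this was the only one set apart by Dixon's criterion, and chance alone sets apart about 1 in 20. It is the library in which Tmsb4x and Rgs5 were also highest.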

How the results depend on the processing

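Tmsb15a kept its direction under 16 alternatives, with log2 fold changes from -5.13 to -4.16; it had under 10 counts in several libraries, so the filter of at least 10 counts in every library gave no value. Tmsb10 stayed negative under 17, from -0.62 to -0.24, and Tmsb4x was positive except without Jag2sm replicate 1, from -0.064 to 0.76. With the replicate number as a block, the log2 fold changes of Tmsb15a, Tmsb4x and Tmsb10 were -4.47, 0.55 and -0.33, 0 actin-handling genes were called higher, in place of 1, Prep was at -0.0061 and Arpc1b lost its call; among Jag2, the copies of Tmsb10 and the genes named by rule from the actin-handling list, the block changed no other call. Actin-handling genes called higher numbered 3 with DESeq2, 5 without a filter and 2 with at least 10 counts in every library. With 1 library left out, 0 to 3 were called higher and 3 to 7 lower. Over all genes, 135 were called higher and 459 lower. The number higher was 206 with DESeq2, 241 with library size alone, 468 without a filter and 43 with at least 10 counts in every library, and 20 to 220 with 1 library left out. The number lower was 780 without a filter, 231 with at least 10 counts in every library, and 221 to 466 with 1 library left out. With 1 library left out, Capzb ranged from -0.060 to 0.11, turning negative without WT replicate 2 or Jag2sm replicate 1, and Prep from -0.097 to 0.14, turning negative without WT replicate 2 or 3 or Jag2sm replicate 2 or 4. The filters change how many genes are tested (25189 without, 2981 with the strictest), and other causes were not tested. Library size alone moved the median log2 fold change of all genes to 0.21 from 0.049. Depth limits most of all WT replicate 1, in which 3 counts make 17.3 CPM, and the low Jag2sm counts of Tmsb15a and Tmod1.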
